A study of Mus musculus with 9 samples.

Results

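Autophagy and lysosome genes were followed in the jejunum of mice fed by vein or not fed at all. The group holds 42 genes chosen by symbol from what they are known to do. All 42 were among the 21868 genes of the deposited count table, and all 42 had enough reads to be tested, as did 14668 genes in all. By role, 25 are autophagy genes, 9 are lysosomal enzymes, 6 are lysosomal membrane or accessory proteins, and 2 are transcription factors.

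Mice were kept for 24 h under one of 3 conditions named in the labels as sham, TPN (total parenteral nutrition, in which nutrients are given into a vein and bypass the gut) and starvation. RNA came from a 5-cm stretch of jejunum opened lengthwise, was enriched for polyadenylated transcripts and was sequenced in bulk, with 3 libraries labelled as biological replicates in each condition. The labels give the tissue and the treatment, and no strain, sex, age or genotype was given in the sources used here. They do not describe the sham procedure, what the sham mice ate or the composition of the infusion. They also do not say whether each library came from a separate mouse, so the p-values below measure the spread between these libraries.

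Autophagy wraps cell contents in a double membrane, the phagophore, which closes into an autophagosome and fuses with a lysosome. Ubiquitin-like proteins of the Atg8 family (LC3 and GABARAP proteins) are joined to the membrane lipid, and cargo receptors link ubiquitinated proteins or mitochondria to them. The lysosome then degrades the contents with acid hydrolases, and mTORC1, a nutrient-sensing kinase at its surface, holds back both autophagy and the transcription factors TFEB and TFE3. When mTORC1 is inactive, TFEB and TFE3 enter the nucleus and bind a DNA element called CLEAR, found near many lysosomal genes. Much of this regulation acts on proteins, by phosphorylation, lipidation and turnover, which transcript counts do not measure.

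The CLEAR element is the sequence that TFEB and TFE3 bind, so its occurrences near the members are shown before the values. RefSeq (GRCm38.p6) promoter windows, from 250 bases before to 50 bases after a gene's start, were matched for 35 of the 42 members. The 8-base core TCACGTGA, which reads the same on both strands and contains the E-box CACGTG, occurred in 5 of these 35 genes, or 14.3%, against 304 of 27025 genes, or 1.12%. Among the members it occurred in 3 of 8 matched lysosomal enzymes, 1 of 5 membrane and accessory proteins and 1 of 20 autophagy genes. Each line gives at most 30 bases on the gene's own strand with the core in capitals, and a further match in the window of Ctsa is not printed.
Atg3, chr16:45158746-45158775, plus strand: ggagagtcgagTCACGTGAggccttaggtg
Ctsa, chr2:164833749-164833772, plus strand: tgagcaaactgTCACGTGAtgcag
Ctsd, chr7:142387908-142387937, minus strand: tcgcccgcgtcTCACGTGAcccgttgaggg
Gla, first of 2, chrX:134601182-134601211, minus strand: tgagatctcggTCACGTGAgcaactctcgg
Gla, the other, chrX:134601215-134601244, minus strand: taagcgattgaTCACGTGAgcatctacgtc
Mcoln1, chr8:3500462-3500491, plus strand: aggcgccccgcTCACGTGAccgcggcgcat

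The E-box, within the core or outside it, occurred in 11 of the 35 genes, or 31.4%, against 8.09% of all genes. These 11 include the 5 genes with the core. Lamp1, which encodes a main glycoprotein of the lysosomal membrane, had 4 copies in the 71 bases that end just before its annotated start (chr8:13159090-13159160, plus strand), and they are in capitals here.
Lamp1: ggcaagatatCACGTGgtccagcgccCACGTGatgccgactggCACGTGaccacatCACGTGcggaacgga
The FOXO motif GTAAACA (searched on both strands, where it reads TGTTTAC) occurred in 0 of the 35 genes and in 4.05% of all genes. These matches describe letters in a window and were not tied to binding.

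Total counts ran from 7779877 reads in TPN replicate 2 to 12084278 in sham replicate 3, and the 42 members took 0.416% to 0.461% of the reads of a library. The 10 absorptive enterocyte markers were read in every library, with summed levels of 33584 to 122783 CPM (counts per 1e6 reads, scaled by TMM factors), as the jejunum label calls for. Libraries differed in other tissue markers. The 8 smooth muscle markers summed to 8855 CPM in sham replicate 2 and to 411 to 1313 CPM in the other 8 libraries. The 5 villus tip markers summed to 6340 CPM in starvation replicate 3 and to 1003 to 2916 CPM elsewhere, while the 6 crypt markers summed to 146 CPM there and to 603 to 1142 CPM elsewhere. Among the sham libraries, replicate 2 also had the highest villus tip sum, 2916 CPM beside 1631 and 1486 CPM. Its crypt sum was the lowest of them, 611 CPM beside 1142 and 1072 CPM. Its fibroblast sum and its macrophage and dendritic cell sum were the highest of the 9 libraries. The 6 pancreatic acinar markers, with no marker at 0, summed to 15190 CPM in TPN replicate 2, 2849 CPM in sham replicate 1, 1914 CPM in starvation replicate 1 and 264 CPM in TPN replicate 1. In the other 5 libraries they summed to 1.08 to 4.17 CPM. Macrophage and dendritic cell markers, whose cells are rich in lysosomes, summed to 435 to 804 CPM in sham, 486 to 581 CPM in TPN and 286 to 511 CPM in starvation, with none of the 11 at 0. Markers of other cell types moved with the groups over 9 libraries (edgeR, adjusted p under 0.05). Of the absorptive enterocyte markers 3 of 10 were lower in TPN against sham and 3 against starvation, with median log2 fold changes of -0.71 and -0.74, and their sum was 47931 to 87390 CPM in sham, 35796 to 42856 CPM in TPN and 33584 to 122783 CPM in starvation. Of the fibroblast markers 3 of 6 were lower in TPN and 2 in starvation against sham, with medians of -2.04 and -1.53 and sums of 365 to 963 CPM in sham, 183 to 250.1 CPM in TPN and 137 to 263 CPM in starvation. Of the Paneth cell markers 3 of 6 were lower in starvation against sham and 4 higher in TPN against starvation, with medians of -1.30 and 1.89 and sums of 3097 to 3452 CPM in sham, 3176 to 4226 CPM in TPN and 509 to 1883 CPM in starvation. Of the macrophage and dendritic cell markers 1 of 11 was higher in TPN against starvation. The 6 B and plasma cell markers did not pass, and in starvation against sham 4 lay above 0 and 2 below. They summed to 1110 to 2009 CPM in sham, 1557 to 1896 CPM in TPN and 610 to 1511 CPM in starvation. Among them the B cell gene Ms4a1 was read at 61.3 and 43.2 CPM in starvation replicates 1 and 2. It was at 0.494 to 19.1 CPM in TPN and at 0.427 to 0.833 CPM in sham and in starvation replicate 3. Jchain went the other way, at 1959, 1079 and 1475 CPM in sham and 1260, 1255 and 595 CPM in starvation. The part of these cell types in the values of the members was not tested. Because the tissue was sequenced in bulk, fewer cells of a type and less RNA per cell cannot be told apart.

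Levels among the members spanned about 2 orders of magnitude per kb of exon. The length was that of all annotated exons of a gene joined, which can exceed the length of a single transcript. In sham jejunum the most abundant were Lamp1 at 186 ± 37.1 CPM per kb (SD, n = 3), Psap, the precursor of the saposins that help degrade sphingolipids, at 164 ± 6.10, and the Atg8 protein Gabarap at 156 ± 55.1. These 3 did not differ beyond their spread. The cathepsin proteases Ctsd, Ctsz and Ctsb followed at 110.0 ± 13.3, 101 ± 2.69 and 99.5 ± 2.15 CPM per kb, again within their spread, and the cargo receptor Sqstm1 stood at 56.4 ± 14.6. The lowest were the cholesterol exporter Npc1 at 1.81 ± 0.654, the lysosomal calcium channel Mcoln1 at 1.90 ± 0.294 and the glycosidase Gla at 2.06 ± 0.233 CPM per kb. By this measure lysosomal components filled 5 of the 6 highest places and all of the 3 lowest. The order depends on the length used. Without division by length, Npc1 was read at 14.7, 28.8 and 17.8 CPM in sham. The autophagy gene Atg14 was read there at 17.96, 15.8 and 14.7 CPM.

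**Figure D1:**
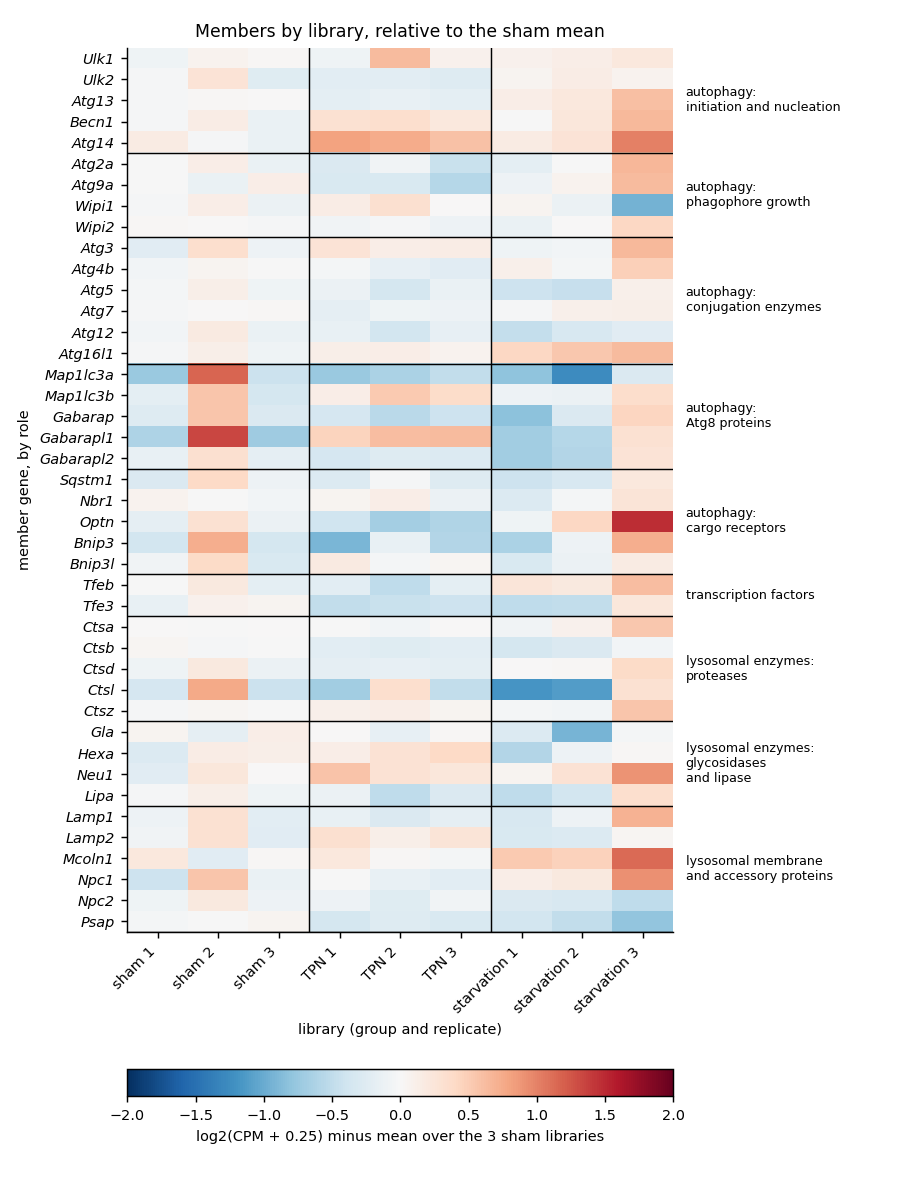
Level of each of the 42 members (rows, by role) in each of the 9 libraries (columns), as log2(CPM + 0.25) minus the mean of the sham libraries, on a colour scale. Starvation replicate 3 held the highest of the 9 values for 23 members and sham replicate 2 for 12, and the share among all genes was not counted.

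No member passed the test in TPN against sham, starvation against sham or TPN against starvation. The test was edgeR's quasi-likelihood test on all 9 libraries with Benjamini-Hochberg adjustment over 14668 genes, called at an adjusted p under 0.05. Of all genes tested, 8.60% were called in TPN against sham, 3.48% higher and 5.12% lower (4.44% and 3.91% when scaled by library totals only, 4.79% and 4.53% with upper quartile factors). The shares were 3.69% in starvation against sham, 2.55% higher and 1.14% lower, and 5.84% in TPN against starvation, 1.94% higher and 3.90% lower. Each library group enters 2 of the 3 comparisons, so their values are not independent of each other. At an unadjusted p under 0.05 there were 2, 7 and 8 members, or 4.76%, 16.7% and 19.0%, in TPN against sham, starvation against sham and TPN against starvation, against 26.9%, 23.4% and 23.1% of all genes. DESeq2 on the same counts called 0 members in TPN against sham, Atg16l1 and Mcoln1 higher and Psap lower in starvation against sham, and Atg13, Optn and Tfeb lower in TPN against starvation.

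Changes beyond 2-fold lay outside the interval of most members. The 95% confidence interval of the fold change lay within 2-fold in either direction for 35 of 42 members in TPN against sham, 34 in starvation against sham and 31 in TPN against starvation. It reached a median of 0.45 to either side on the log2 scale in each comparison, and 1.14 to 1.15 for Gabarapl1, which had the widest of the 42.

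**Figure D2:**
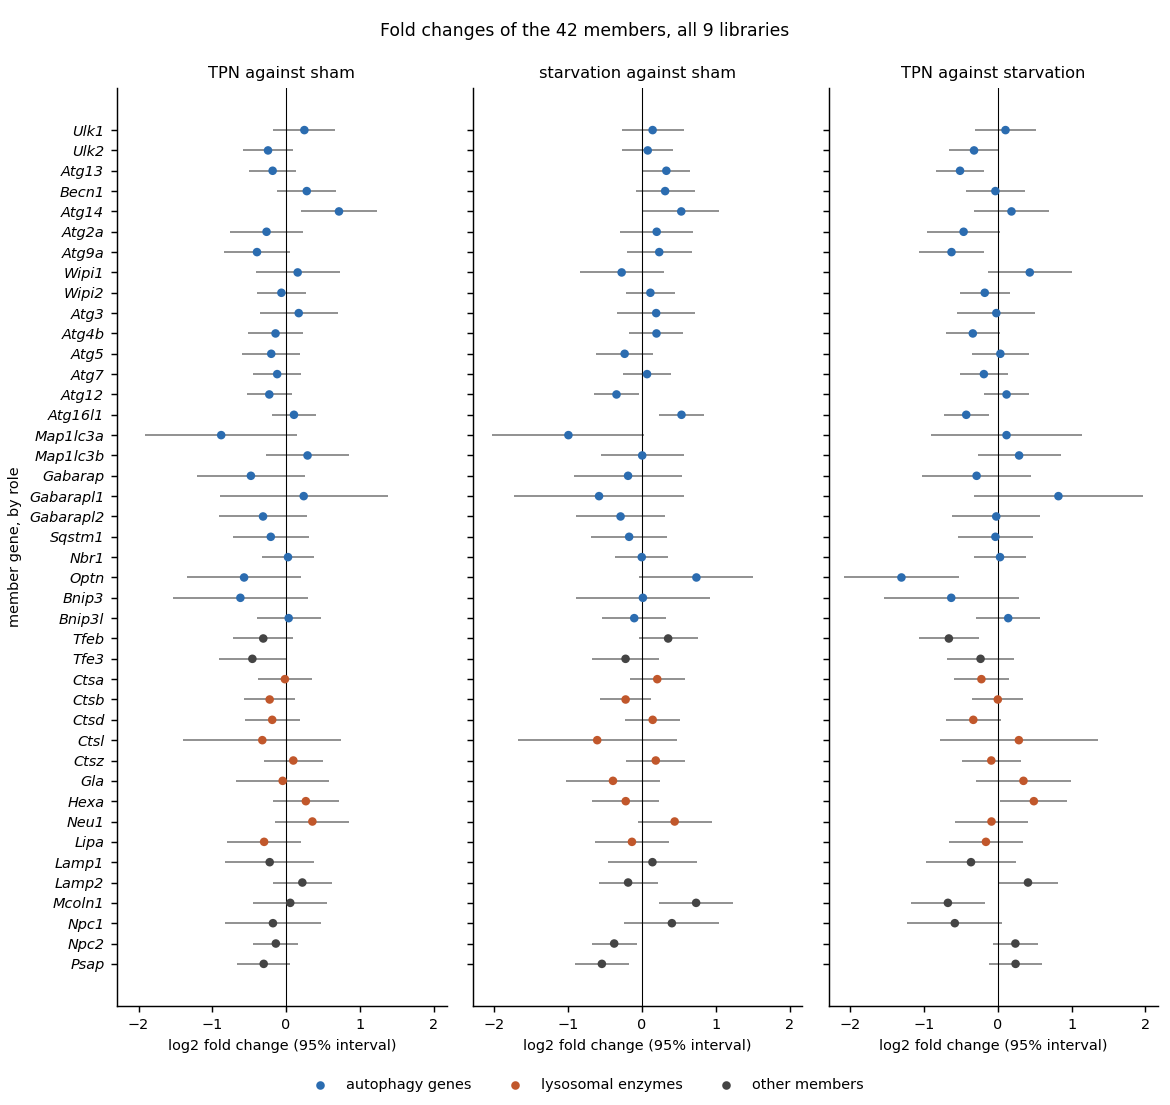
Log2 fold change of each member in the 3 comparisons with its 95% confidence interval (edgeR, 9 libraries), grouped by role. Most intervals cross 0, and the widest belong to Gabarapl1, Ctsl and Map1lc3a.

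Sham replicate 2 and starvation replicate 3, the libraries that stood apart by smooth muscle and villus tip markers, also held the extreme values of many members. Starvation replicate 3 was the highest of 9 for 13 of 25 autophagy genes and 5 of 9 enzymes, and sham replicate 2 for 10 autophagy genes and 1 enzyme. How many of all genes were highest in each was not counted, so these counts are not a trait of the members. Starvation replicate 3 and sham replicate 2 had the lowest TMM factors, 0.763 and 0.883, which raise CPM. The members took 0.425% and 0.461% of their reads. The results are also given without sham replicate 2 and starvation replicate 3, with 2 sham, 3 TPN and 2 starvation libraries, a choice made with earlier results known. The members' own values entered this choice, and leaving out extreme libraries narrows the spread within groups. The adjusted p over 7 libraries are therefore descriptive and cannot be taken at face value. The part of other tissue in the values of the 2 libraries was not tested. Of the 14855 genes tested over these 7 libraries, 15.0% were called higher and 14.8% lower in TPN against sham, 10.9% and 9.0% in starvation against sham, and 10.1% and 11.5% in TPN against starvation. The members' counts were 7 higher and 2 lower, 1 higher and 4 lower, and 7 higher and 4 lower, or 16.7% and 4.76%, 2.38% and 9.52%, and 16.7% and 9.52% of the 42. The share called higher was thus near that of all genes in TPN against sham, above it in TPN against starvation and below it in starvation against sham. The share called lower was below that of all genes in TPN against sham (4.76% beside 14.8%) and nearer to it in the other comparisons. A difference from all genes was not tested.

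Autophagy is started by the ULK kinase complex (Ulk1, Ulk2, Atg13) and the class III PI3-kinase complex that holds Becn1 and Atg14. Ulk1 was read at 29.3, 32.9 and 31.8 CPM in the sham libraries, 29.6, 48.9 and 33.4 CPM in TPN and 33.2, 34.3 and 36.4 CPM in starvation. The starvation values lay just above the sham values, and TPN replicate 2 stood above all others. Its log2 fold changes were 0.25 ± 0.19 (SE) in TPN against sham, 0.14 ± 0.19 in starvation against sham and 0.10 ± 0.19 in TPN against starvation, with edgeR adjusted p of 0.425, 0.682 and 0.787.

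Atg14 and the following members outside the 10 fixed for naming were chosen after their values were seen. Atg14 (chr14:47540893-47570649) was read at 17.96, 15.8 and 14.7 CPM in sham, 28.3, 27.1 and 24.3 CPM in TPN and 18.1, 19.5 and 32.5 CPM in starvation. All TPN and starvation values lay above the sham values. Its log2 fold change of 0.72 ± 0.23 in TPN against sham missed the threshold over 9 libraries (edgeR adjusted p = 0.083) and was 0.74 ± 0.14 over 7 (adjusted p = 0.00389). In TPN against starvation it was 0.18 ± 0.23 over 9 libraries and 0.53 ± 0.14 over 7 (edgeR adjusted p = 0.675 and 0.0222). Becn1 differed less, with TPN against sham at 0.28 ± 0.18 over 9 libraries and 0.40 ± 0.10 over 7 (edgeR adjusted p = 0.343 and 0.018), and 43.9% of its exon length is shared with Cntd1 on the other strand. Whether the counting used strand was not given in the sources used here, so reads of the 2 genes cannot be told apart.

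Atg13 was read at 42.9, 44.3 and 43.7 CPM in sham, 37.9, 39.3 and 38.1 CPM in TPN and 48.0, 50.6 and 66.2 CPM in starvation. The 3 groups did not overlap, with TPN lowest and starvation highest. In TPN against starvation its log2 fold change was -0.51 ± 0.14 over 9 libraries (edgeR adjusted p = 0.0706) and -0.32 ± 0.08 over 7 (adjusted p = 0.025). It was also called there by DESeq2 over 9 libraries and by edgeR without starvation replicate 1 alone. It was not called there by limma voom, with upper quartile factors or with a fit of only the groups compared.

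The phagophore grows with lipid delivered by Atg2a and Atg9a at sites marked by Wipi1 and Wipi2. None of these 4 passed over 9 libraries, with log2 fold changes from -0.39 to 0.16 in TPN against sham and from -0.28 to 0.23 in starvation against sham. Atg9a, a scramblase, was lower in TPN against sham over 7 libraries at -0.42 ± 0.11 (edgeR adjusted p = 0.0196), and 31.8% of its exon length is shared with Gm29253 on the same strand.

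Atg3, Atg4b, Atg5, Atg7, Atg12 and Atg16l1 take part in the process that joins Atg8 proteins to lipid. Atg16l1, which sets where conjugation takes place, was read at 22.5, 24.8 and 21.4 CPM in sham, 24.9, 25.2 and 23.9 CPM in TPN and 30.6, 33.2 and 35.6 CPM in starvation. Every starvation library lay above every sham and TPN library. In starvation against sham its log2 fold change was 0.54 ± 0.14 over 9 libraries (edgeR adjusted p = 0.0616) and 0.54 ± 0.11 over 7 (adjusted p = 0.0122). In TPN against starvation it was -0.43 ± 0.14 over 9 libraries and -0.34 ± 0.10 over 7 (edgeR adjusted p = 0.0971 and 0.0463). Atg5 was the other conjugation gene called in starvation against sham over 7 libraries, lower at -0.37 ± 0.11 (edgeR adjusted p = 0.0417), and Atg3 was higher in TPN against sham at 0.40 ± 0.12 (adjusted p = 0.0359).

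The Atg8 family itself spanned log2 fold changes from -0.88 to 0.29 in TPN against sham, -0.997 to 0.00 in starvation against sham and -0.29 to 0.82 in TPN against starvation. Gabarapl1 (chr6:129533160-129542346) was read at 22.8, 88.6 and 21.2 CPM in sham, 47.8, 54.1 and 54.2 CPM in TPN and 21.6, 23.5 and 43.4 CPM in starvation. The TPN values were close together and above all others except sham replicate 2, whose 88.6 CPM was the highest. Over 9 libraries its log2 fold change was 0.24 ± 0.51 in TPN against sham and 0.82 ± 0.51 in TPN against starvation (edgeR adjusted p = 0.798 and 0.381). Without the 2 libraries it was 1.28 ± 0.11 and 1.25 ± 0.11 (edgeR adjusted p = 6.84e-05 and 1.49e-04), and starvation against sham was 0.04 ± 0.12. Leaving out sham replicate 2 alone gave 1.24 in TPN against sham (edgeR adjusted p = 0.0415), and a term for the smooth muscle markers over all 9 libraries gave 1.76 (adjusted p = 0.0367). Sham replicate 2 also had the highest smooth muscle sum, so both settings act on the library with the highest Gabarapl1 value. They are not separate support for a rise, and their adjusted p are descriptive too. A part of Gabarapl1, 28.3% of its exon length, is shared with 1700101I11Rik on the other strand.

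Map1lc3b (chr8:121590361-121598760), the LC3 form most used to mark autophagosomes, was read at 112.5, 189.6 and 101.4 CPM in sham, 142.5, 185.0 and 166.0 CPM in TPN and 119.9, 118.9 and 165.5 CPM in starvation. Sham replicate 2 was again the highest, and the other sham libraries the lowest. The log2 fold change in TPN against sham was 0.29 ± 0.25 over 9 libraries (edgeR adjusted p = 0.49) and 0.66 ± 0.13 over 7 (adjusted p = 0.00481). The change in starvation against sham was 0.00 ± 0.25 over 9 libraries and 0.16 ± 0.14 over 7, neither of which passed (edgeR adjusted p = 0.997 and 0.443).

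Map1lc3a did not follow Map1lc3b. It was read at 21.0, 79.5 and 26.2 CPM in sham, 20.9, 22.8 and 24.99 CPM in TPN and 20.03, 14.7 and 28.7 CPM in starvation, so that sham replicate 2 stood alone. Its log2 fold change in TPN against sham was -0.88 ± 0.46 over 9 libraries and 0.00 ± 0.17 over 7 (edgeR adjusted p = 0.249 and 0.993). Gabarapl2 was lower in starvation against sham over 7 libraries at -0.48 ± 0.13 and higher in TPN against starvation at 0.39 ± 0.12 (edgeR adjusted p = 0.0308 and 0.0448). Gabarap passed in no comparison over 9 or 7 libraries.

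**Figure D3:**
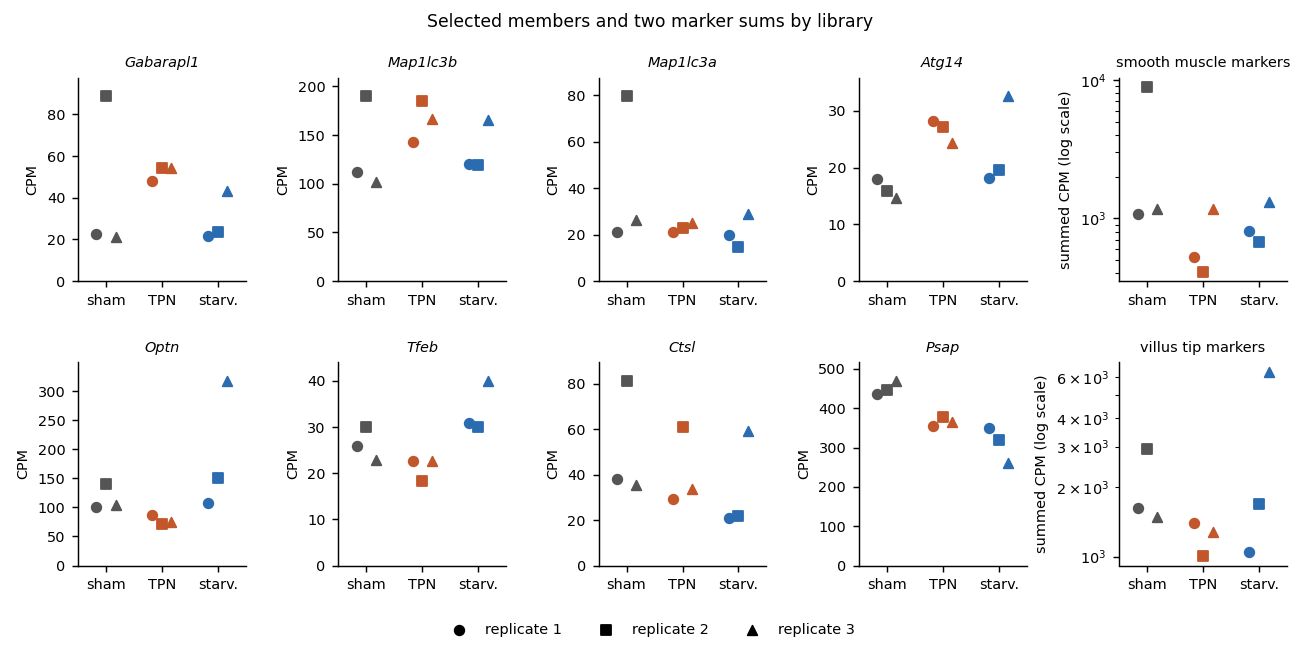
CPM per library for 8 members and the summed CPM of the smooth muscle and villus tip markers (log axes); each point is 1 library and its shape the replicate. Sham replicate 2 stands above the other sham libraries for Gabarapl1 and Map1lc3b as it does for the smooth muscle and the villus tip markers.

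Among the cargo receptors, Sqstm1 (p62), which is itself degraded by autophagy, was read at 151, 244 and 173 CPM in sham, 153, 183 and 156 CPM in TPN and 139, 149 and 215 CPM in starvation. The groups overlapped in every comparison. Its log2 fold changes were -0.21 ± 0.23, -0.17 ± 0.23 and -0.03 ± 0.23 in TPN against sham, starvation against sham and TPN against starvation (edgeR adjusted p = 0.594, 0.685 and 0.952), and none passed over 7 libraries.

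Bnip3, a receptor on mitochondria, was read at 19.8, 42.2 and 19.9 CPM in sham, 13.4, 23.0 and 16.98 CPM in TPN and 16.4, 23.7 and 42.7 CPM in starvation. Sham replicate 2 and starvation replicate 3 were its highest libraries. The log2 fold changes of -0.62 ± 0.41, 0.01 ± 0.40 and -0.63 ± 0.41 did not pass (edgeR adjusted p = 0.36, 0.992 and 0.398).

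Optn (optineurin, chr2:5020642-5064051) was read at 100.5, 140.6 and 104.5 CPM in sham, 86.8, 71.3 and 74.8 CPM in TPN and 107.8, 151.2 and 317.7 CPM in starvation. All TPN values lay below all others, and starvation replicate 3 lay far above. In TPN against starvation its log2 fold change was -1.31 ± 0.35 over 9 libraries (edgeR adjusted p = 0.0604) and -0.70 ± 0.14 over 7 (adjusted p = 0.00864). In TPN against sham it was -0.57 ± 0.34 and -0.36 ± 0.14, with edgeR adjusted p of 0.32 and 0.0862. The other receptors, Nbr1 and Bnip3l, passed in no comparison over 9 or 7 libraries.

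The 2 transcription factors differed in pattern. Tfeb (chr17:47737030-47792419) was read at 25.9, 30.1 and 22.8 CPM in sham, 22.6, 18.2 and 22.7 CPM in TPN and 30.8, 29.98 and 40.0 CPM in starvation. TPN values lay below starvation values with no overlap. In TPN against starvation the log2 fold change was -0.66 ± 0.18 over 9 libraries and -0.48 ± 0.13 over 7 (edgeR adjusted p = 0.0635 and 0.0282). Starvation against sham gave 0.35 ± 0.18 and 0.32 ± 0.14, which did not pass (edgeR adjusted p = 0.264 and 0.14).

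Tfe3 was read at 40.3, 47.6 and 46.7 CPM in sham, 31.6, 32.9 and 33.5 CPM in TPN and 31.3, 31.7 and 52.5 CPM in starvation. All 3 TPN libraries and 2 of 3 starvation libraries lay below sham, and starvation replicate 3 lay above. Over 7 libraries it was lower in TPN and in starvation against sham, at -0.37 ± 0.10 and -0.47 ± 0.11 (edgeR adjusted p = 0.0202 and 0.0186), against -0.46 ± 0.20 and -0.22 ± 0.20 over 9 (adjusted p = 0.185 and 0.536).

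Of the lysosomal proteases, Ctsb was read at 617, 592 and 598 CPM in sham, 519, 508 and 522 CPM in TPN and 473, 495 and 581 CPM in starvation. Both other groups lay below sham with no overlap. The log2 fold change was -0.22 ± 0.16 in each (edgeR adjusted p = 0.387 in TPN and 0.416 in starvation), and over 7 libraries -0.19 ± 0.09 and -0.32 ± 0.10 (adjusted p = 0.154 and 0.0566).

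Ctsd, an aspartic protease, was read at 244, 295 and 238 CPM in sham, 227, 229 and 226 CPM in TPN and 259.9, 261 and 337 CPM in starvation. TPN lay lowest, with log2 fold changes of -0.19 ± 0.17 against sham and -0.33 ± 0.17 against starvation (edgeR adjusted p = 0.501 and 0.271), and 34.4% of its exon length is shared with Gm49369 on the same strand.

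Ctsl, a cysteine protease, was read at 37.9, 81.3 and 35.7 CPM in sham, 29.3, 60.8 and 33.9 CPM in TPN and 21.0, 21.8 and 59.0 CPM in starvation. In each group 1 library stood at 59.0 CPM or more: sham replicate 2, TPN replicate 2, which also held the most pancreatic acinar RNA, and starvation replicate 3. Its fold changes over 9 libraries had standard errors of 0.48, and TPN against starvation was 0.28 ± 0.48 over 9 libraries and 0.98 ± 0.27 over 7 (edgeR adjusted p = 0.771 and 0.0322). Its exons overlap Gm47123 on the other strand over 26.8% of their length. The pancreatic markers' part in the value of TPN replicate 2 was not tested. The remaining proteases, Ctsa and Ctsz, passed in no comparison over 9 or 7 libraries.

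Of the other enzymes, Neu1, a sialidase, was higher in TPN against sham over 7 libraries at 0.52 ± 0.13, and Hexa, a subunit of beta-hexosaminidase, was higher in TPN against starvation at 0.66 ± 0.19 (edgeR adjusted p = 0.0158 and 0.0333). Over 9 libraries these were 0.36 ± 0.22 and 0.49 ± 0.20 (edgeR adjusted p = 0.339 and 0.186). Gla and the acid lipase Lipa passed in no comparison over 9 or 7 libraries.

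Lamp1 (chr8:13159161-13175338), whose promoter held the 4 E-boxes, was read at 459.6, 609.7 and 422 CPM in sham, 445, 402 and 432 CPM in TPN and 394, 459.9 and 792 CPM in starvation. Its 2 highest libraries were sham replicate 2 and starvation replicate 3. Without them the log2 fold changes were -0.01 ± 0.11, -0.04 ± 0.12 and 0.04 ± 0.11 in TPN against sham, starvation against sham and TPN against starvation, against -0.22 ± 0.27, 0.14 ± 0.27 and -0.36 ± 0.27 over 9 libraries. None passed (edgeR adjusted p = 0.63, 0.787 and 0.458 over 9 libraries).

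Lamp2, which also takes part in autophagosome fusion, was read at 175, 227 and 158 CPM in sham, 231, 200.3 and 221 CPM in TPN and 149.8, 153 and 189 CPM in starvation. TPN lay above starvation with no overlap. Over 7 libraries TPN was higher by 0.43 ± 0.11 against sham and 0.56 ± 0.11 against starvation (edgeR adjusted p = 0.0166 and 0.00701), and over 9 by 0.22 ± 0.18 and 0.41 ± 0.18 (adjusted p = 0.458 and 0.21).

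Psap was read at 437, 447 and 469.8 CPM in sham, 354, 378 and 365 CPM in TPN and 349, 319 and 261 CPM in starvation, and the 3 groups did not overlap. Starvation against sham gave -0.54 ± 0.16 over 9 libraries and -0.44 ± 0.12 over 7 (edgeR adjusted p = 0.0914 and 0.0281). In TPN against sham it was -0.30 ± 0.16 and -0.27 ± 0.10, which did not pass (edgeR adjusted p = 0.258 and 0.0817).

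Mcoln1, the calcium channel whose promoter held the CLEAR core, was read at 16.5, 12.1 and 14.4 CPM in sham, 16.5, 14.4 and 13.8 CPM in TPN and 20.6, 19.6 and 31.4 CPM in starvation. All starvation values lay above all others. In starvation against sham its log2 fold change was 0.73 ± 0.22 over 9 libraries and 0.38 ± 0.15 over 7 (edgeR adjusted p = 0.0993 and 0.109). Npc1 and Npc2, which pass cholesterol out of the lysosome, did not pass in any comparison over 9 or 7 libraries.

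The other genes with the CLEAR core are given beside Mcoln1, and differences between these genes were not tested. In starvation against sham the log2 fold changes were 0.19 ± 0.24 for Atg3, 0.21 ± 0.17 for Ctsa, 0.14 ± 0.17 for Ctsd and -0.39 ± 0.29 for Gla. In TPN against sham they were 0.17, -0.02, -0.19 and -0.05, with 0.06 for Mcoln1. None of the 5 passed in either comparison over 9 libraries.

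**Figure D4:**
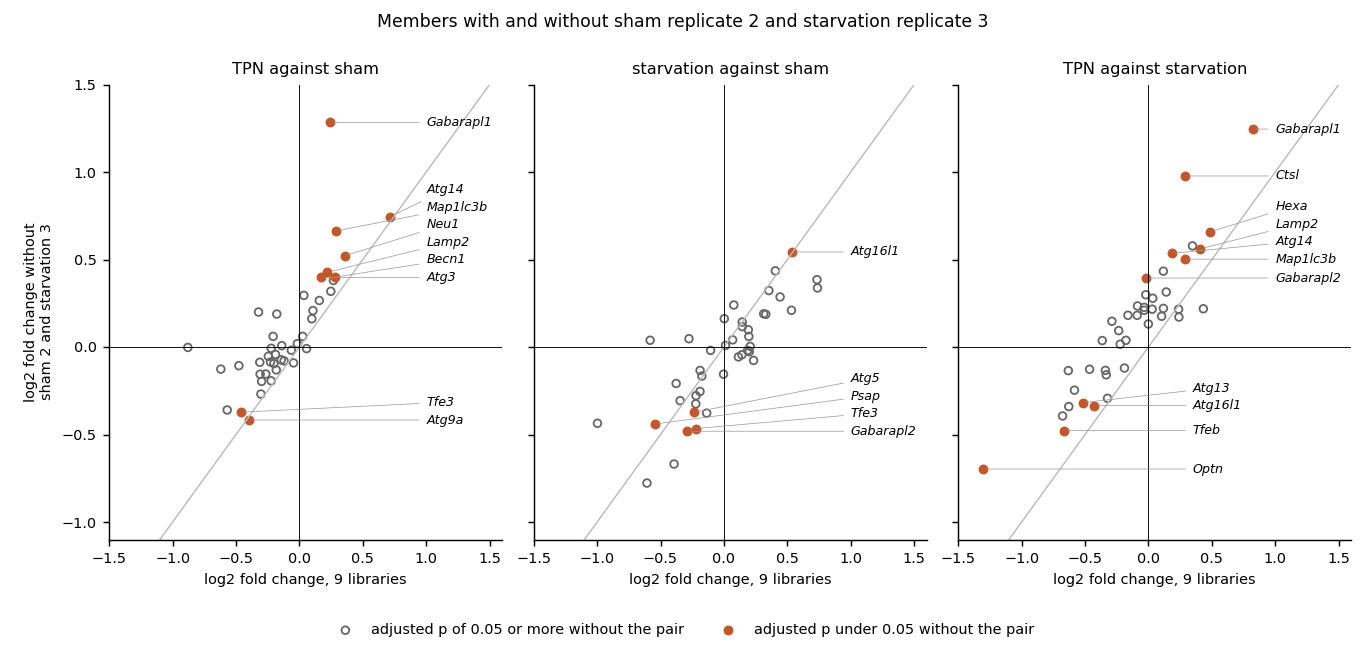
Log2 fold change of each member over 9 libraries (x axis) and without sham replicate 2 and starvation replicate 3 (y axis) in the 3 comparisons, with the line of equality; filled points had an edgeR adjusted p under 0.05 over the 7 libraries. Gabarapl1 lies farthest above the line in TPN against sham, at 0.24 over 9 libraries and 1.28 over 7.

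Autophagy genes and lysosomal enzymes were set side by side as groups. Over 9 libraries the median log2 fold change of the 25 autophagy genes was -0.14 in TPN against sham, 0.07 in starvation against sham and -0.03 in TPN against starvation. For the 9 enzymes it was -0.05, -0.14 and -0.09, and for all genes tested -0.02, -0.01 and -0.03. Over 7 libraries the medians were -0.02, 0.04 and 0.21 for the autophagy genes, 0.02, -0.28 and 0.18 for the enzymes and 0.07, 0.01 and 0.00 for all genes. Both medians of TPN against starvation thus turned from below to above 0 without sham replicate 2 and starvation replicate 3, and 29 of the 42 members were above 0. Scaling by library totals only shifted the median of all genes by 0.19 in TPN against sham and 0.14 in TPN against starvation, and the median of the autophagy genes then stood at 0.05 and 0.16 beside 0.17 and 0.11 for all genes. With a term for the smooth muscle markers the median of the autophagy genes in TPN against sham was 0.10, a change of sign, and that of the enzymes 0.07.

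The autophagy median minus the enzyme median was -0.10 in TPN against sham, 0.20 in starvation against sham and 0.05 in TPN against starvation. Over 7 libraries the difference in starvation against sham was 0.32. Within libraries, relative to the sham mean of each gene, this difference was -0.02, 0.03 and -0.11 in sham, -0.11, -0.02 and -0.15 in TPN and 0.16, 0.06 and 0.02 in starvation, with a pooled SD of 0.0714. It was above 0 in all starvation libraries and below 0 in all TPN libraries, while the sham libraries overlapped both. The median fold changes of TPN against starvation gave the opposite sign to these per-library values, at 0.05, so that the direction of that contrast depended on how the group was summarised.

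Summed over higher and lower, the share of members whose groups did not overlap was near that of all genes. It was 21.4% beside 25.1% in starvation against sham and 35.7% beside 33.6% in TPN against starvation. By direction, TPN against sham had a smaller share of members higher and a larger share lower than all genes. This difference was not tested. TPN and sham libraries did not overlap for 17 members (40.5%, beside 42.7% of all genes), 3 with TPN higher (7.14%, beside 21.3%) and 14 with TPN lower (33.3%, beside 21.4%). Starvation and sham gave counts of 5 higher and 4 lower (11.9% and 9.52%, beside 13.9% and 11.2%), and in TPN against starvation 5 and 10 (11.9% and 23.8%, beside 15.3% and 18.3%). Among the autophagy genes TPN lay wholly below sham for 8 of 25 and wholly above for 2 of 25, and among the enzymes for 3 and 1 of 9.

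**Figure D5:**
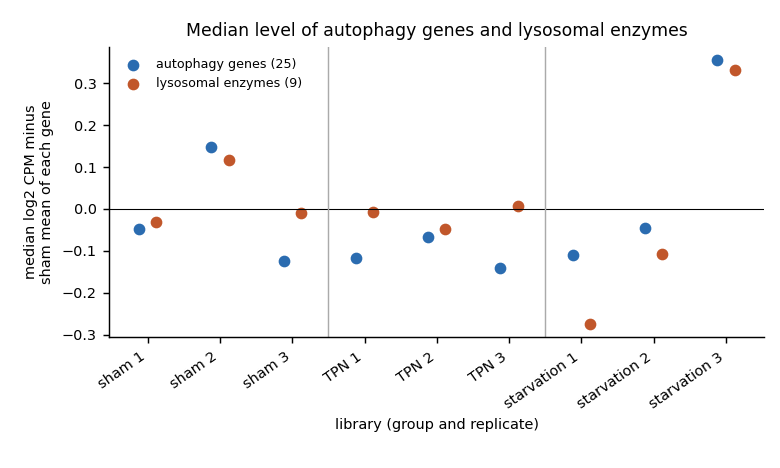
Median log2 level of the 25 autophagy genes and of the 9 lysosomal enzymes in each library, relative to the sham mean of each gene. Both medians are highest in starvation replicate 3, at 0.36 and 0.33, and the enzymes are lowest in starvation replicate 1, at -0.27.

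Genes around the members did pass over 9 libraries, where 3.48% of all genes were called higher and 5.12% lower in TPN against sham, 2.55% and 1.14% in starvation against sham, and 1.94% and 3.90% in TPN against starvation. Of 31 other autophagy genes, 2 rose in TPN against sham and 1 in starvation against sham, and 0 fell. Atg16l2, a relative of Atg16l1, was read at 59.5, 56.2 and 73.3 CPM in sham, 182, 157 and 165 CPM in TPN and 89.5, 101 and 139 CPM in starvation, and rose in TPN against sham by 1.42 ± 0.19 on the log2 scale (edgeR adjusted p = 0.00395). Retreg1, a receptor for autophagy of the endoplasmic reticulum, was read at 68.4, 82.8 and 54.7 CPM in sham, 188, 209 and 138 CPM in TPN and 143, 174 and 292 CPM in starvation. It rose by 1.38 ± 0.29 in TPN against sham and by 1.56 ± 0.29 in starvation against sham (edgeR adjusted p = 0.022 and 0.0283).

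Of 32 other lysosomal hydrolases, 2 fell in TPN against sham, 0 changed in starvation against sham, and 1 rose and 2 fell in TPN against starvation. Ctso, a cathepsin, was read at 45.6, 49.5 and 42.1 CPM in sham, 20.8, 18.8 and 23.1 CPM in TPN and 54.0, 47.2 and 52.0 CPM in starvation. It fell by 1.13 ± 0.14 in TPN against sham and by 1.29 ± 0.14 against starvation (edgeR adjusted p = 0.0029 and 0.002). Naglu, a glycosidase of heparan sulfate breakdown, fell by 0.79 ± 0.21 in TPN against sham (edgeR adjusted p = 0.0497). Galns, a sulfatase, fell by 1.03 ± 0.21 and Ctsc, a protease that activates other proteases, rose by 0.89 ± 0.20 in TPN against starvation (edgeR adjusted p = 0.0251 and 0.0328).

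Of 16 subunits and partners of the V-ATPase, the proton pump that acidifies the lysosome, 0 rose and 1 fell in TPN against sham, with a median log2 fold change of -0.27 beside -0.02 for all genes over 9 libraries and -0.10 beside 0.07 over 7. The gene that fell was Atp6v1a, at -0.54 ± 0.13 (edgeR adjusted p = 0.0392). In TPN against starvation Atp6ap2 rose by 0.51 ± 0.12 and Atp6v0a1 fell by 1.24 ± 0.26 (edgeR adjusted p = 0.0432 and 0.0256). Of the 16, 0 passed in starvation against sham, with a smallest edgeR adjusted p of 0.115.

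Of 30 tested genes that control mTORC1, TFEB or autophagy transcription, 4 rose and 1 fell in TPN against sham, 2 rose and 0 fell in starvation against sham, and 2 rose and 3 fell in TPN against starvation. Rragb was not tested for low counts. Ddit4 (REDD1), an inhibitor of mTORC1 signalling, was read at 28.1, 30.1 and 26.2 CPM in sham, 141, 156 and 119.6 CPM in TPN and 60.6, 53.7 and 34.1 CPM in starvation. TPN lay highest and sham lowest with no overlap, and Ddit4 rose by 2.31 ± 0.21 in TPN against sham and by 1.49 ± 0.21 against starvation (edgeR adjusted p = 8.25e-04 and 0.00621). Its 0.82 ± 0.21 in starvation against sham missed the threshold over 9 libraries and passed over 7 at 1.08 ± 0.14 (edgeR adjusted p = 0.0628 and 0.00166).

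Flcn, the folliculin GTPase-activating protein through which amino acids keep TFEB and TFE3 in the cytoplasm, was read at 13.3, 17.1 and 12.996 CPM in sham, 18.05, 19.7 and 13.6 CPM in TPN and 28.2, 26.7 and 36.0 CPM in starvation. It rose in starvation against sham by 1.07 ± 0.21 and fell in TPN against starvation by 0.83 ± 0.21 (edgeR adjusted p = 0.0311 and 0.048). Slc38a9, a lysosomal arginine sensor, rose in both comparisons with sham, by 0.73 ± 0.17 in TPN and 1.24 ± 0.17 in starvation (edgeR adjusted p = 0.0364 and 0.0105). Rragd, a Rag GTPase that places mTORC1 on the lysosome, rose in TPN by 0.61 ± 0.14 against sham and by 0.79 ± 0.14 against starvation (edgeR adjusted p = 0.0322 and 0.0154).

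Rptor, a scaffold subunit of mTORC1, fell in TPN by 0.56 ± 0.14 against sham and by 0.59 ± 0.14 against starvation (edgeR adjusted p = 0.042 and 0.0418). Sesn1, a leucine sensor, fell in TPN against starvation by 1.07 ± 0.17 (edgeR adjusted p = 0.00968). Foxo1 rose in TPN against sham by 0.45 ± 0.12 (edgeR adjusted p = 0.0427). Foxo3, a transcription factor known to act on autophagy genes, did not pass, at -0.27 ± 0.14, 0.12 ± 0.14 and -0.39 ± 0.14 in TPN against sham, starvation against sham and TPN against starvation (edgeR adjusted p = 0.239, 0.638 and 0.131).

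Each call named in these 4 lists was also made over the 7 libraries, in the same direction. The 7 libraries are part of the same 9 and more of all genes were called over them, so this is not separate support. Counts over 7 libraries, in the order TPN against sham, starvation against sham and TPN against starvation, are to be read beside the shares of all genes called there, 15.0% higher and 14.8% lower, 10.9% and 9.0%, and 10.1% and 11.5%. Other autophagy genes gave 5 higher and 4 lower, 5 and 0, and 3 and 3 of 31. Other hydrolases gave 7 and 6, 4 and 2, and 3 and 6 of 32. The V-ATPase genes gave 2 and 4, 0 and 1, and 3 and 1 of 16, and the control genes gave 9 and 4, 6 and 1, and 4 and 5 of 31.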

How the data were processed

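Raw read counts per gene were deposited by the authors as 1 table. The submitters' processing notes name STAR 2.7.2e and featureCounts 2.0.0, builds GRCm38 and mm10, the trimming and quality tools cutadapt 2.9 and FastQC 0.11.8, and DESeq2 1.32.0. The annotation release, strand setting and handling of multi-mapped reads were not given in the sources used here. Columns were matched to samples by name, and 9 columns of counts that matched no sample were not used.

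Counts were fitted with edgeR 4.0.16 in R 4.3.3 (filterByExpr, TMM factors, quasi-likelihood test, 6 residual degrees of freedom, all 9 libraries with 1 mean per condition, Benjamini-Hochberg adjustment over 14668 genes). The script was tested on simulated data. CPM values use TMM-scaled totals. A standard error is the log2 fold change divided by the root of its F statistic. Libraries of a condition differed beyond sampling noise. Exon lengths and positions come from GENCODE M21 (GRCm38).

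The 42 members, the other lists and the tests were chosen with earlier results of these data known. Values in every library are given for 10 members fixed by name, for any member called over 9 libraries (there were 0), and for others said to be chosen after their values were seen. From each other list the 4 genes with the smallest adjusted p among those called are named per comparison, with Ddit4, Foxo3, Flcn and Rragd always named. Foxo1 was added after its values were seen. In all, 22 alternatives were run, DESeq2 1.42.0 and limma 3.58.1 (voom) among them.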

Additional observations from a re-analysis of the deposited data

How the results depend on the processing

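Over all 9 libraries 0 members were called in either direction in any comparison. Among the 22 alternatives, an adjusted p under 0.01 and a change of at least 2-fold were stricter cutoffs on the same fit. They could only give 0 again. Of the other alternatives some also gave 0 in every comparison, and the following called members. Upper quartile factors called 1 member higher in TPN against sham (Atg14). Library totals only called 2 higher there (Becn1, Atg14), and 1 higher (Lamp2) and 1 lower (Optn) in TPN against starvation. Fitting only the groups compared called 1 higher (Atg14) and 2 lower (Optn, Tfe3) in TPN against sham. The smooth muscle covariate called 1 higher (Gabarapl1) in TPN against sham and in TPN against starvation, and moved the autophagy minus enzyme difference in TPN against sham to 0.036. DESeq2 called 2 higher and 1 lower in starvation against sham and 3 lower in TPN against starvation. Leaving out sham replicate 2 and starvation replicate 3 together called 7 higher and 2 lower, 1 higher and 4 lower, and 7 higher and 4 lower, in the order TPN against sham, starvation against sham and TPN against starvation, and moved the difference in starvation against sham to 0.32. The cause was not tested in any of these.

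Leaving out single libraries gave 0 to 1 members higher and 0 to 1 lower in TPN against sham, 0 to 0 higher and 0 to 4 lower in starvation against sham, and 0 to 0 higher and 0 to 3 lower in TPN against starvation. Without sham replicate 2, Gabarapl1 was called in TPN against sham and Tfeb in TPN against starvation. Without starvation replicate 3, Atg14 and Tfe3 were called in TPN against sham, and Atg5, Gabarapl2, Tfe3 and Psap in starvation against sham. Without starvation replicate 1, Atg13, Atg9a and Optn were called in TPN against starvation. The autophagy minus enzyme difference ranged from -0.1463 to -0.03745, from 0.09502 to 0.2548 and from -0.05183 to 0.05318. Of 660 values of named members under the alternatives, 55 changed sign, with no call on either side. The 660 include the values under the stricter cutoffs, which could not differ from the main fit.

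The replicate numbers did not pair the libraries: correlations of same-numbered libraries ran from -0.30 to 0.378, and libraries did not all correlate best with their own number. With the replicate block 0 members were called in each comparison and the differences were -0.1012, 0.2371 and 0.03255. Genes called over the whole table, 510 higher and 751 lower, 374 and 167, and 285 and 572, came to 203 and 353, 48 and 23, and 133 and 253 with the block, to 1035 and 1386, 997 and 657, and 692 and 1099 with DESeq2, and to 1130 and 1644, 2 and 0, and 250 and 295 with only the groups compared. Whether depth limited the calls was not tested: Gla, the member with the fewest reads at 3.38 to 7.33 CPM, had standard errors of 0.28 to 0.29, and Gabarapl1, at 21.2 to 88.6 CPM, of 0.51.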
